A study of Mus musculus with 4 samples.

Results

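The genes described here encode the Wnt pathway: the Wnt ligands and their acyltransferase Porcn, the Frizzled and Lrp receptors with the polarity protein Vangl1, the secreted inhibitors of the Sfrp and Dkk families with Frzb and Wif1, the cytoplasmic transducers, and the nuclear factors of the TCF/LEF family. Genes were chosen by symbol and not by signal, taking every probe set that the array annotation gives to a single symbol of these families. The choice held 83 probe sets for 53 genes, of 20380 probe sets for 12393 genes with a single symbol on the array. They divide into 19 ligands, Porcn, 12 receptors, 10 secreted inhibitors, 8 transducers and 3 nuclear factors. A further gene of the rule, Tcf7, was not matched to a probe set. Several probe sets read 21 of the 53 genes.

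The study examined how electroconvulsive stimulation (ECS), used in rodents to model electroconvulsive therapy, acts on the adult dentate gyrus (DG), the hippocampal region whose principal neurons are granule cells (GCs). RNA of dissected DG of C57Bl/6 mice, adult males by the study's methods, was read on 4 arrays, 1 per group, each holding pooled RNA of 3 mice. ECS was given under isoflurane anaesthesia. The first group had 1 sham session, handled alike but with no current, and was dissected at 1 h. The second had a single ECS and was dissected at 1 h. The third had 10 ECS and was taken 48 h after the last of them. By the study's methods these mice were also sham-treated at 1 h before dissection. The fourth had 11 ECS and was dissected 1 h after the last. Each ECS was bilateral, at 25 mA for 1 s with 100 pulses per s of 0.5 ms, in 4 sessions a week over at most 3 weeks. The free-text notes of 3 of the 4 samples name a treatment other than that in their titles and sources, and the titles were followed. Since no group has a second array, the spread within a group is unknown, and no difference below was tested.

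Wnt proteins are lipid-modified signals that are made ready for secretion by Porcn and bind Frizzled receptors together with Lrp5 or Lrp6. In the canonical branch the bound receptors recruit Dishevelled and Axin, the destruction complex of Axin, Apc and Gsk3b stops marking beta-catenin for degradation, and beta-catenin enters the nucleus to act with TCF/LEF factors. Other branches act through planar polarity proteins or calcium. In the adult DG, Wnt signals are known for their part in the generation of new GCs from neural stem cells and in the growth of their processes, and secreted inhibitors such as Sfrp and Dkk proteins set how much ligand reaches its receptors.

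Promoters are shown for Frzb, the gene farthest below sham after 10 ECS on the probe set that stands for it, and for Axin2, a negative regulator that is itself a classic target of beta-catenin and had the lowest ratio of the transducers 1 h after a single ECS. Each holds 250 bases before and 50 after the RefSeq gene start in GRCm38.p6, written 5′ to 3′ on the gene's strand. The Frzb window is chr2:80447347-80447646 on the minus strand. The Axin2 window is chr11:108920099-108920398 on the plus strand. Capitals mark the TCF/LEF core motif CTTTGA, searched on both strands, which in Frzb lies on the strand opposite to the gene and so reads as TCAAAG.
Frzb: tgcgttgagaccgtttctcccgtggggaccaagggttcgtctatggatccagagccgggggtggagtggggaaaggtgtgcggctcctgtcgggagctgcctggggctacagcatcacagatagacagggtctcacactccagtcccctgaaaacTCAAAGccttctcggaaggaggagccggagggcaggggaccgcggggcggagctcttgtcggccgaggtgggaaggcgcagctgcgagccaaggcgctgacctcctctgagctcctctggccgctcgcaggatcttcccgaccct
Axin2: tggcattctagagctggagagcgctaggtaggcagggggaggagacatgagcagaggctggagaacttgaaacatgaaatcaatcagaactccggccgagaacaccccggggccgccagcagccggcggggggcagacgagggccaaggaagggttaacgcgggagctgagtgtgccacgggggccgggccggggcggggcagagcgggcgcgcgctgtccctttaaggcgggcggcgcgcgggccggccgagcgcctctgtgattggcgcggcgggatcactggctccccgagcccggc
The Frzb window held 1 match, which begins 95 bases before the start, and the Axin2 window held none. The motif occurs in 16% of all 32851 promoters of this length. Among the genes described here 35 of 53 had a promoter in the same table, and 7 of the 35 held the motif (Dkk1, Frzb, Fzd1, Gsk3b, Lef1, Wnt11 and Wnt5b). Counted by promoter, as for the share above, these are 7 of 43 (16.3%), near that share. The activity-linked motifs TGACGTCA (the cyclic AMP response element, in 1.79% of promoters) and TGANTCA (the AP-1 motif, in 7.81%) were in neither window. A motif of 8 or fewer letters is short, and its presence or absence describes the letters of these windows only.

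Signals are the deposited MAS5 intensities on a linear scale. A floor of 12, the 25th percentile over all arrays, replaced every lower value, and a gene with several probe sets stands by the one with the highest mean signal. Levels are not compared between genes, because probe sets differ in their response to the same amount of RNA. The arrays differed in their median, which was 69.3 in sham, 56.3 after single ECS, 62.4 after 10 ECS and 56.7 after 11 ECS. The median log2 ratio of all genes was -0.24 for single ECS over sham, -0.11 for 11 ECS over 10 ECS, -0.14 for 10 ECS over sham and 0.00 for 11 ECS over single ECS. Each ratio below is to be read against these medians. The pooled SD of the log2 ratio between probe sets of the same gene was 0.29, 0.27, 0.29 and 0.28 in that order. It compares readings on the same arrays and holds no spread between mice, pools or arrays. Limits given in this SD are sizes against the disagreement of probe sets, not errors of a treatment difference. All 5 activity genes used to check the labels (Fos, Arc, Egr2, Fosb and Nptx2) were at least 2-fold higher in both groups dissected 1 h after ECS, with Arc at 3569.6 after a single ECS against 118.7 in sham, and at 1360.1 after 11 ECS against 67.5 after 10 ECS. Of the GC markers Prox1, Calb1, Dsp, Tdo2 and Neurod1, all 5 were above the floor on all 4 arrays.

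Of the 53 Wnt pathway genes, 30 were above the floor on all 4 arrays, 10 on 1 to 3 arrays and 13 on none. That is 56.6% on all 4 arrays, against 72.6% of the 12393 genes. Transducers were measured most often, with 7 of 8 above the floor throughout, and ligands least often apart from Porcn, with 7 of 19. A signal at the floor does not show that the transcript is absent. By array, 37 of the genes were above the floor in sham, 32 after single ECS, 32 after 10 ECS and 34 after 11 ECS. Among the 30 measured genes the highest over the lowest array had a median of 1.42-fold and ran from 1.08-fold for Ctnnb1 to 2.19-fold for Frzb, and the median over all 8999 genes measured on 4 arrays was 1.37-fold. The sham array was the highest of the 4 for 20 of the 30 genes (66.7%), and for 60.5% of all genes. Once arrays were scaled to the same median it was the highest for 7 of the 30 (23.3%), and for 21.8% of all genes.

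**Figure D1:**
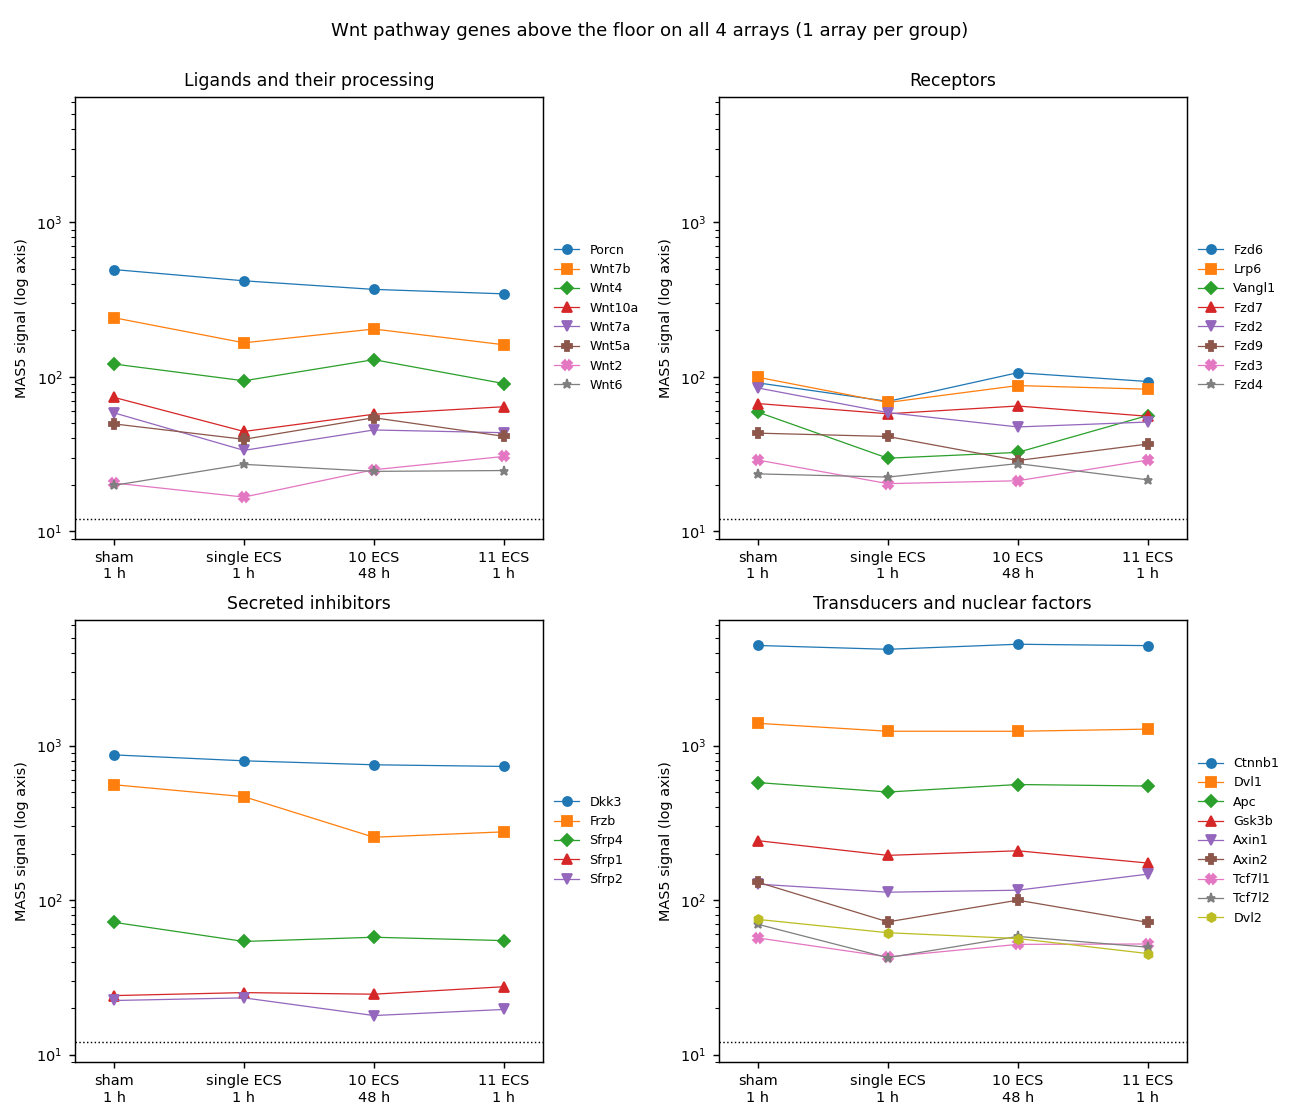
MAS5 signal (log axis) of the 30 Wnt pathway genes above the floor on all 4 arrays, by group and role; each point is 1 array, lines join the points of 1 gene and the dotted line is the floor of 12. Frzb stands at 255.2 and 276.6 after 10 and 11 ECS, below 558.1 and 467.2 in sham and single ECS, while Ctnnb1 runs nearly level between 4200.7 and 4529.9.

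Few of these genes were 2-fold apart in any comparison. For single ECS over sham, 0 of 38 genes with a value were at least 2-fold higher, where 1.2% of all genes were, and 0 were at least 2-fold lower, where 2.89% were. For 11 ECS over 10 ECS, 1 of 35 was higher (Fzd8, background 1.06%) and 0 were lower (1.21%). For 10 ECS over sham, 0 of 38 were higher (0.716%) and 1 was lower (Frzb, 1.22%). For 11 ECS over single ECS, 0 of 34 were higher (0.832%) and 0 were lower (0.782%). At these percentages the background over 38 genes is itself about 1 gene or less, so that the counts say little in either direction.

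A limit of 1.5-fold, added after the values were seen, took in more genes. In single ECS over sham, 0 of 38 were higher, against 3.05% of all genes, and 5 were lower (Axin2, Tcf7l2, Vangl1, Wnt10a and Wnt7a), which is 13.2% against 15.3% of all genes. In 11 ECS over 10 ECS, 2 of 35 were higher (Fzd8 and Vangl1, 5.71% against 3.45%) and 0 were lower, against 6.9%. In 10 ECS over sham, 0 of 38 were higher, against 2.94%, and 5 were lower (Frzb, Fzd2, Fzd8, Fzd9 and Vangl1), 13.2% against 7.17%. In 11 ECS over single ECS, 2 of 34 were higher (Vangl1 and Wnt2, 5.88% against 4.34%) and 1 was lower (Frzb, 2.94% against 4.22%). Of the 5 genes lower after 10 ECS than in sham, 4 belong to the receptor group, Vangl1 included, and 1 is a secreted inhibitor. The median log2 ratio of the Wnt pathway genes was -0.29 for single ECS over sham, -0.03 for 11 ECS over 10 ECS, -0.23 for 10 ECS over sham and 0.05 for 11 ECS over single ECS. Each lay within 0.10 of the median of all genes.

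Among the ligands, Wnt2, Wnt4, Wnt5a, Wnt6, Wnt7a, Wnt7b and Wnt10a were above the floor on all 4 arrays. Wnt11, Wnt16, Wnt2b, Wnt3a, Wnt8a and Wnt9b were above it on some arrays, with no signal over 15.4. Wnt1, Wnt3, Wnt5b, Wnt8b, Wnt9a and Wnt10b were at the floor on all of them. Wnt3 and Wnt3a, canonical ligands known from work on adult neurogenesis in the hippocampus, had highest signals of 9.6 and 13.7, so that neither gave a ratio between measured signals.

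Wnt7b, a ligand known for a role in dendrite growth of hippocampal neurons, had signals of 241.8 in sham, 166.4 after single ECS, 204.4 after 10 ECS and 161.7 after 11 ECS. It was thus lower on both arrays taken 1 h after ECS than on the other 2. The ratio was 1.45-fold lower for single ECS over sham (log2 -0.54) and 1.26-fold lower for 11 ECS over 10 ECS (log2 -0.34). A dimmer Wnt7b probe set had 31.8, 19.6, 27.3 and 25.8 in the same group order, with log2 ratios of -0.70 and -0.08.

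Wnt4, a ligand known from kidney and gonad development, gave 121.3 in sham, 94.5 after single ECS, 129.5 after 10 ECS and 90.7 after 11 ECS. Both arrays at 1 h after ECS were again below the other 2, by 1.28-fold for single ECS over sham (log2 -0.36) and 1.43-fold for 11 ECS over 10 ECS (log2 -0.51). The arrays of the same recent treatment lay close, at log2 0.09 for 10 ECS over sham and -0.06 for 11 ECS over single ECS. Wnt5a, the best known ligand of the polarity and calcium branches, showed 49.7, 39.5, 54.5 and 41.3 in the order sham, single ECS, 10 ECS and 11 ECS. Both arrays at 1 h after ECS were again below the other 2, with log2 ratios of -0.33 for single ECS over sham and -0.40 for 11 ECS over 10 ECS. A dimmer Wnt5a probe set with 34.1, 23.1, 24.4 and 16.9 gave -0.56 and -0.53. With arrays scaled to the same median, single ECS over sham was at log2 -0.06 for Wnt4, -0.03 for Wnt5a and -0.24 for Wnt7b. Scaled values for 11 ECS over 10 ECS were -0.38, -0.26 and -0.20 in that gene order.

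Wnt7a, a ligand of synapse formation and stem cell self-renewal, was 58.6 in sham, 33.5 after single ECS, 45.4 after 10 ECS and 43.6 after 11 ECS. Its 1.75-fold lower signal for single ECS over sham (log2 -0.81) had no counterpart in 11 ECS over 10 ECS (log2 -0.06). Wnt10a, a canonical ligand, likewise had no lower signal for 11 ECS over 10 ECS, with 73.8, 44.4, 57.4 and 64.2 in the order sham, single ECS, 10 ECS and 11 ECS. Its log2 ratios were -0.73 for single ECS over sham and 0.16 for 11 ECS over 10 ECS. For 10 ECS over sham Wnt7a was at log2 -0.37 and Wnt10a at -0.36, so that sham was the highest array for both. Whether the responses to the first and the 11th ECS differ could not be tested. Wnt2, a canonical ligand, had 20.6, 16.7, 25.1 and 30.6 and Wnt6 had 19.9, 27.2, 24.5 and 24.8 in that group order. Wnt2 was 1.83-fold higher for 11 ECS over single ECS (log2 0.87) and Wnt6 was the ligand with the highest ratio for single ECS over sham (log2 0.45), both from signals under 3 times the floor. Porcn, the enzyme that attaches the lipid to Wnt proteins, was 495.8 in sham, 419.3 after single ECS, 368.9 after 10 ECS and 345.3 after 11 ECS. It was lower in both groups with repeated ECS, by log2 0.43 for 10 ECS against sham and 0.28 for 11 ECS against single ECS.

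The receptors Fzd2, Fzd3, Fzd4, Fzd6, Fzd7, Fzd9 and Lrp6 and the polarity protein Vangl1 were above the floor on all 4 arrays. Fzd8 was above it on 3 of them, and Fzd1, Fzd5 and Lrp5 on none. All 9 with a value had a log2 ratio below 0 for single ECS over sham, but with the median of all genes at -0.24 just 5 of the 9 lay below that median. For 10 ECS over sham, 7 of 9 were below 0 and 6 of 9 below the median of all genes, with a receptor median of -0.45. The other comparison of repeated ECS, 11 ECS over single ECS, did not repeat this. There 5 of 9 were above 0 and the receptor median was 0.29, against 0.00 for all genes.

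Fzd2, a Frizzled receptor known from progenitor cells, had 84.9 in sham, 58.8 after single ECS, 47.5 after 10 ECS and 51.1 after 11 ECS. The sham array was the highest, and the other 3 did not separate by treatment. Fzd2 was 1.79-fold lower for 10 ECS over sham (log2 -0.84), with 2 further probe sets at log2 -0.69 and -0.45. Against single ECS the 11 ECS array was at log2 -0.20, with 0.06 and -0.26 on the other probe sets. Fzd9, a Frizzled receptor expressed in the hippocampus, had 43.3, 41.2, 28.8 and 36.8 in the order sham, single ECS, 10 ECS and 11 ECS. Both repeated ECS arrays were lower, with log2 ratios of -0.59 for 10 ECS over sham and -0.16 for 11 ECS over single ECS, the second within 1 SD between probe sets. Fzd8, a canonical receptor, had 22.0 in sham, 20.9 after single ECS, 9.3 after 10 ECS and 26.7 after 11 ECS. Only the 10 ECS signal was at the floor, so Fzd8 was at least 2.23-fold higher for 11 ECS over 10 ECS and at least 1.83-fold lower for 10 ECS over sham. Its brightest signal was under 3 times the floor, and no ratio remains with a floor of 50.

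Lrp6, the co-receptor of the canonical branch, had 99.6 in sham, 68.4 after single ECS, 88.0 after 10 ECS and 83.4 after 11 ECS. A dimmer Lrp6 probe set had 74.9, 42.1, 43.6 and 42.1. Both put sham highest, with log2 ratios of -0.54 and -0.83 for single ECS over sham, and they differed on 10 ECS over sham (-0.18 and -0.78). Fzd6, an inhibitory receptor of the canonical branch, had 91.6, 69.5, 106.6 and 93.5, and Fzd7, a receptor of stem cells, had 67.3, 57.8, 64.9 and 55.7, in the order sham, single ECS, 10 ECS and 11 ECS. Fzd7 log2 ratios ran from -0.22 to -0.05. Fzd4, the Norrin receptor of vessels, stayed between 21.6 and 27.5. Fzd3, a receptor of axon guidance, had 29.0, 20.4, 21.3 and 29.0 on the probe set that stands for it, but its 3 measured probe sets did not share a sign in single ECS over sham, 11 ECS over 10 ECS or 11 ECS over single ECS.

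Vangl1, a membrane protein of planar polarity, had 59.2 in sham, 29.8 after single ECS, 32.5 after 10 ECS and 56.3 after 11 ECS. The sham and 11 ECS arrays were high and the other 2 low, an order that follows neither the time since ECS nor the number of sessions. It was 1.99-fold lower for single ECS over sham (log2 -0.99) and 1.73-fold higher for 11 ECS over 10 ECS (log2 0.79). Vangl1 is read by 1 probe set, so these values have no second reading.

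**Figure D2:**
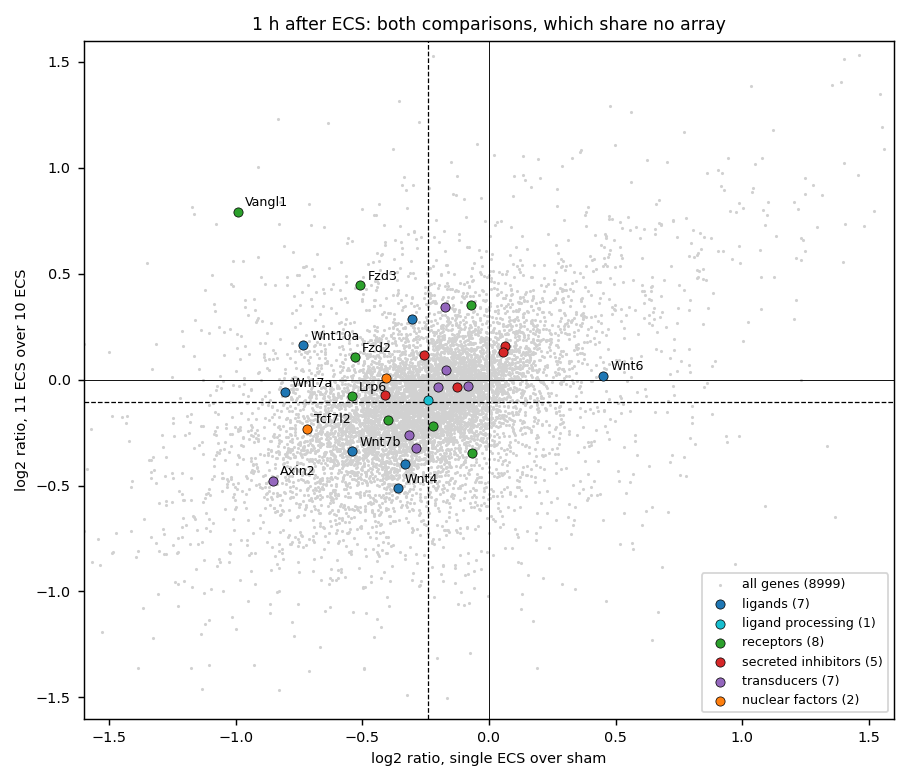
Log2 ratio for single ECS over sham (x axis) and for 11 ECS over 10 ECS (y axis), which share no array; grey points are the 8999 genes above the floor on all 4 arrays (67 lie outside the axes), coloured points the 30 Wnt pathway genes by role, and dashed lines the medians of the grey points. Axin2 lies at -0.85 and -0.48, Wnt4 and Wnt7b at the lower left, and Vangl1 at the upper left, at -0.99 and 0.79.

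Of the secreted inhibitors, Dkk3, Frzb, Sfrp1, Sfrp2 and Sfrp4 were above the floor on all 4 arrays. Dkk1 and Wif1 were just above it on the sham array alone (15.1 and 12.7), and Dkk2, Dkk4 and Sfrp5 were at the floor throughout. Dkk1 is the best known antagonist of Lrp6 and Wif1 binds Wnt proteins directly, and neither gave a ratio between measured signals.

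Frzb, a secreted Frizzled-related protein that binds Wnt ligands outside the cell, had 558.1 in sham, 467.2 after single ECS, 255.2 after 10 ECS and 276.6 after 11 ECS. Both arrays from mice with repeated ECS were lower than both others. Frzb was 2.19-fold lower for 10 ECS over sham (log2 -1.13) and 1.69-fold lower for 11 ECS over single ECS (log2 -0.76), each more than 2 SD between probe sets. Between arrays that differ in the latest session, the log2 ratios were -0.26 for single ECS over sham, near the median of all genes, and 0.12 for 11 ECS over 10 ECS. A second, dimmer Frzb probe set had 44.7, 42.5, 28.7 and 34.3 in the same group order. Its order was the same, at 1.56-fold lower for 10 ECS over sham (log2 -0.64) and 1.24-fold lower for 11 ECS over single ECS (log2 -0.31). Of the 13 genes with several measured probe sets, Frzb was the single one whose probe sets shared a sign in all 4 comparisons. Lrp6 missed this in 11 ECS over single ECS alone, where its dimmer probe set was at log2 0. The share of all genes that meet this was not computed.

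In bulk DG, fewer cells of a type and less RNA per cell cannot be told apart. Some GC markers were lower on the same arrays as Frzb. The 5 measured markers summed to 3662.2 after 10 ECS against 6380.6 in sham, and to 3268.7 after 11 ECS against 5432 after single ECS, a sum in which Calb1 and Dsp hold the largest signals. Calb1, Dsp and Tdo2, which the study used as markers of mature GCs, had log2 ratios of -1.10, -0.78 and -0.87 for 10 ECS over sham, and -1.08, -0.95 and -1.20 for 11 ECS over single ECS. Neurod1, a factor of GC differentiation, was at -0.20 and -0.07, within 1 SD between probe sets. Prox1, the defining transcription factor of GCs, was 57.1 after 10 ECS against 68.6 in sham, and 62.7 after 11 ECS against 69.8 after single ECS, also within 1 SD. The 9 markers of meninges and fibroblasts summed to 667.2 after 10 ECS against 701.8 in sham, and to 581.7 after 11 ECS against 532.7 after single ECS, with members on both sides: Ogn was 33.4 against 240.7 for 10 ECS and sham, and Col3a1 was 105.9 against 17.9. The 6 choroid plexus markers on the array summed to 207.5 after 10 ECS against 206.6 in sham, and to 160.1 after 11 ECS against 299.5 after single ECS. Ttr, by far the largest of these signals after single ECS, had 67.2 in sham, 215.9 after single ECS, 103.4 after 10 ECS and 76.9 after 11 ECS. Kl had 74.3, 38.4, 26.6 and 25.2 in that group order, at log2 -1.48 for 10 ECS over sham and -0.61 for 11 ECS over single ECS. In the same comparisons Folr1 was at 0.18 and 0.21 and Sostdc1 at 0.44 and 0.49, so choroid plexus markers lay on both sides. Aqp1, and Otx2, the defining factor of the choroid plexus, were at the floor on all 4 arrays. The 6 endothelial markers summed to 840.9 after 10 ECS against 754.9 in sham, and to 749 after 11 ECS against 756.7 after single ECS. The part of these cells in the Frzb values was not tested.

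Dkk3, a divergent Dkk protein that is abundant in hippocampal neurons, had 870.7 in sham, 797.3 after single ECS, 751.4 after 10 ECS and 733.2 after 11 ECS. Its log2 ratios lay between -0.21 and -0.04, within 1 SD between probe sets in all 4 comparisons, and a dimmer probe set gave -0.34 for single ECS over sham and -0.38 for 10 ECS over sham. Sfrp4, a secreted Frizzled-related protein, had 71.8, 54.0, 57.5 and 54.7, with sham highest. Sfrp1 and Sfrp2, inhibitors of the same family, stayed between 24.1 and 27.5 and between 17.9 and 23.3. The 4 measured inhibitors other than Frzb had log2 ratios between -0.32 and 0.03 for 10 ECS over sham, where Frzb had -1.13, a contrast between genes that was not tested.

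**Figure D3:**
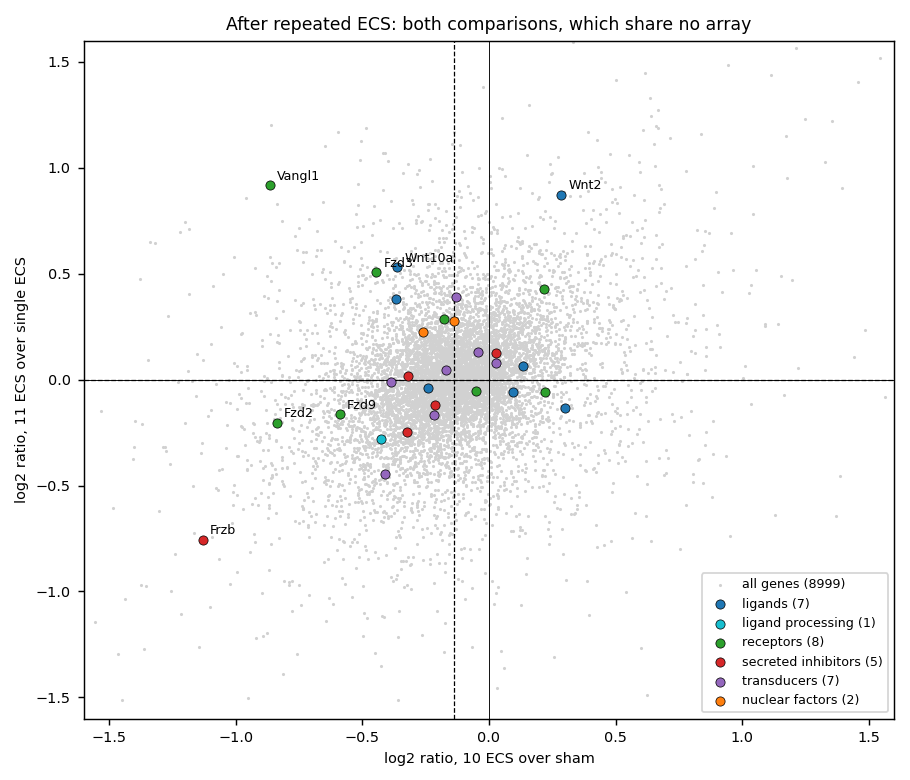
Log2 ratio for 10 ECS over sham (x axis) and for 11 ECS over single ECS (y axis), which share no array; grey points are the 8999 genes above the floor on all 4 arrays (14 lie outside the axes), coloured points the 30 Wnt pathway genes by role, and dashed lines the medians of the grey points. Frzb lies at the lower left at -1.13 and -0.76, Wnt2 at the upper right and Vangl1 at the upper left at -0.87 and 0.92.

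All transducers except Dvl3 were above the floor on all 4 arrays. Ctnnb1, which encodes beta-catenin, had 4446.9 in sham, 4200.7 after single ECS, 4529.9 after 10 ECS and 4437.2 after 11 ECS. On this probe set no array was more than 1.08-fold from another, the narrowest range of the 30 measured genes. Dimmer Ctnnb1 probe sets were at log2 0.26 and -0.17 for 10 ECS over sham. Apc, the scaffold of the destruction complex, had 576.4, 500.7, 560 and 547.5 in the same group order, a range of 1.15-fold. Its dimmer probe sets were at log2 0.45 and -0.84 for 10 ECS over sham. Dvl1, a Dishevelled protein that relays the receptor signal, had 1394.2, 1238.8, 1238.3 and 1278.4, a range of 1.13-fold. For single ECS over sham this probe set was at log2 -0.17 and a dimmer one at 0.20. Gsk3b, the kinase of the complex, had 242.5, 194.8, 208.6 and 173.8, with log2 ratios between -0.32 and -0.16. On the probe sets that stand for them, these 4 genes had their highest signal in sham except Ctnnb1, which had it after 10 ECS.

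Axin2 had 130.6 in sham, 72.3 after single ECS, 99.9 after 10 ECS and 71.8 after 11 ECS. Both arrays taken 1 h after ECS were lower than the other 2 and nearly equal to each other (log2 -0.01 for 11 ECS over single ECS). The signal was 1.81-fold lower for single ECS over sham (log2 -0.85) and 1.39-fold lower for 11 ECS over 10 ECS (log2 -0.48). It was also 1.31-fold lower for 10 ECS over sham (log2 -0.39). A second Axin2 probe set was at the floor on all 4 arrays, so these values rest on 1 probe set. Axin1, the constitutive scaffold of the complex, had 126.9, 112.5, 115.9 and 147.2 in the order sham, single ECS, 10 ECS and 11 ECS. Its log2 ratios of -0.17 for single ECS over sham and 0.34 for 11 ECS over 10 ECS did not share a direction, and a dimmer probe set at -0.52 and -0.28 differed from it in the second. Dvl2, a second Dishevelled, had 75, 61.5, 56.4 and 45.1. It was lower in both comparisons of repeated ECS, at log2 -0.41 for 10 ECS over sham and -0.45 for 11 ECS over single ECS.

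Among the nuclear factors, Tcf7l1, mostly a repressor, and Tcf7l2, an activator or repressor that binds beta-catenin, were above the floor on all 4 arrays. Lef1, an activator, reached 13.2 after 10 ECS and was at the floor on the other 3, so it gave no ratio for single ECS over sham. Tcf7l2 had 69.7 in sham, 42.4 after single ECS, 58.2 after 10 ECS and 49.6 after 11 ECS. Its log2 ratio for single ECS over sham was -0.72 on this probe set and 0.78 on a dimmer one with 13.9, 23.8, 19.8 and 20 in the same order, so that its direction is not settled. Tcf7l1 had 56.9, 42.9, 51.7 and 52. Its dimmer probe set had 46.9, 37.1, 16.7 and 34.1 and was 2.81-fold lower for 10 ECS over sham (log2 -1.49), where the brighter one was at log2 -0.14.

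The probe sets of 1 gene gave the same sign in 10 of 13 genes for single ECS over sham, 7 for 11 ECS over 10 ECS, 9 for 10 ECS over sham and 3 for 11 ECS over single ECS. For single ECS over sham the genes whose probe sets did not share a sign were Dvl1, Fzd3 and Tcf7l2. For 10 ECS over sham they were Apc, Ctnnb1, Tcf7l2 and Wnt5a.

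**Figure D4:**
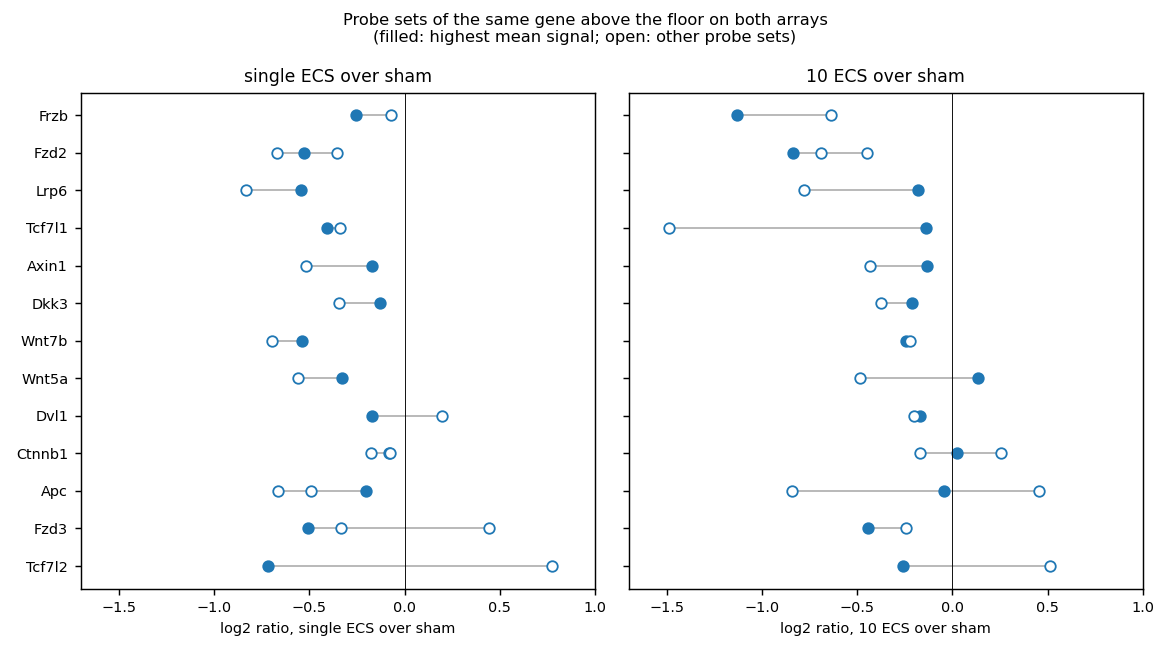
Log2 ratio of each probe set above the floor on both arrays, for single ECS over sham (left) and 10 ECS over sham (right), in the 13 genes with several measured probe sets; filled points are the probe set with the highest mean signal and open points the others. Both Frzb probe sets lie below 0 for 10 ECS over sham, at -1.13 and -0.64, while those of Tcf7l2 lie on both sides of 0 for single ECS over sham, at -0.72 and 0.78.

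Each treatment was compared on 2 pairs of arrays that share no array, so that a gene past a limit the same way in both was read in separate mice. With a limit of 1 SD between probe sets in each comparison, also added after the values were seen, 4 of the 30 measured genes were lower 1 h after ECS in both pairs (Axin2, Wnt4, Wnt5a and Wnt7b), which is 13.3% against 17.4% of all genes. In both pairs 0 were higher, where 3.18% of all genes were. After repeated ECS, 3 of 30 were lower in both pairs (Dvl2, Frzb and Porcn), against 7.06% of all genes, and 0 were higher, against 2.64%. When all arrays were scaled to the same median, the lower gene at 1 h was Axin2 alone (5.01% of all genes) and the lower gene after repeated ECS was Frzb alone (4.42%), while Sfrp1 was higher at 1 h (1 of 30, against 7.88% of all genes) and Fzd6 and Wnt2 were higher after repeated ECS (2 of 30, against 4.20%). With the median over probe sets in place of the brightest one, Axin2 was at -0.43 and -0.24 and no longer past the limit in both pairs. Its second probe set, at the floor on all 4 arrays, entered that median as no change, so this setting gives no second reading of Axin2. With arrays scaled to the same median, Axin2 was at log2 -0.55 for single ECS over sham and -0.34 for 11 ECS over 10 ECS. Frzb was then at -0.98 for 10 ECS over sham and -0.77 for 11 ECS over single ECS, while its ratio for single ECS over sham turned to 0.04.

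Genes next to these in the pathway were read from 5 lists, to be set against the shares of all genes past 2-fold: 1.2% higher and 2.89% lower for single ECS over sham, and 1.06% and 1.21% for 11 ECS over 10 ECS. With lists of this size such a share is less than 1 gene. Of the regulators of ligand release and receptors, 21 of 28 were on the array and 0 were 2-fold apart in any comparison. Of the destruction complex and its cytoplasmic partners, 20 of 28 were on the array, and 1 was at least 2-fold higher for single ECS over sham (1 of 20): Dact1, a Dishevelled-binding antagonist, with 233.6 after single ECS against 111.1 in sham, and 124.3 after 11 ECS against 98.6 after 10 ECS. In 11 ECS over 10 ECS, 2 of 20 genes of that list were at least 2-fold lower. They were Frat1, a Gsk3 inhibitor, at 15.2 against 42, and Nkd1, a Dishevelled antagonist, at 14.8 against 30.8. Both lower signals lay close to the floor of 12. No signal of either gene was above 42, so neither ratio remains with the higher floor applied to Fzd8 above. Of the nuclear cofactors of beta-catenin, 21 of 23 were on the array and 0 were 2-fold apart in any comparison. Their log2 ratios were below 0 in 20 of 21 for single ECS over sham and in 19 of 21 for 11 ECS over 10 ECS, and below the median of all genes in 16 and 12 of 21. Of the polarity and calcium branch, 26 of 33 were on the array, and 1 was at least 2-fold lower for single ECS over sham. This was Nfatc1, a calcium-regulated transcription factor, which was at the floor after single ECS against 26.1 in sham. No Nfatc1 signal was above 26.1, so its ratio does not remain with that higher floor either.

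Known targets of beta-catenin lay on both sides. Of 28 listed, 26 were on the array, Axin2, Lef1 and Dkk1 among them. For single ECS over sham, 2 of 22 with a value were at least 2-fold higher, against 1.2% of all genes, and 0 were 2-fold lower, against 2.89%. The higher ones were Jun and Myc, which are also known as activity-induced genes. Myc had 82 after single ECS against 38.9 in sham and 75 after 11 ECS against 36.3 after 10 ECS. Jun had 2683.8 against 1094.3 and 1586.6 against 963.2 in the same comparisons. For 11 ECS over 10 ECS, 1 of 22 targets was at least 2-fold higher (Myc, against 1.06% of all genes). In that comparison 1 was at least 2-fold lower, from the dim signals given above (Nkd1, also on the destruction complex list, against 1.21%). For 11 ECS over single ECS, 2 of 20 targets were at least 2-fold higher, against 0.832% of all genes. They were the adhesion receptor Cd44 with 74.2 against 34.4 and the matricellular protein Ccn5 with 28.7 against 14.1. The lower Ccn5 signal lay close to the floor. No Ccn5 signal was above 30.9, so its ratio does not remain with the higher floor applied to Fzd8 above. Axin2 and Mycn were lower at 1 h after ECS, with Mycn at 93.6 after single ECS against 171.2 in sham and at 126.8 after 11 ECS against 177.3 after 10 ECS. The median log2 ratio of the targets was -0.14 for single ECS over sham and -0.12 for 11 ECS over 10 ECS, against -0.24 and -0.11 for all genes.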

How the data were processed

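Pooled DG RNA from 3 mice per group was amplified from 100 ng with a 3' in vitro transcription kit and hybridised to Affymetrix Mouse Genome 430A 2.0 arrays. The deposited values are linear MAS5 signal intensities of each probe set, computed by the authors in the Affymetrix operating software; how arrays were scaled to each other is not stated in the sources used here. After 64 control probe sets, 22626 remained, of which 691 had several symbols and 1555 none. Names came from the platform annotation, and the symbols of all 83 probe sets described equal those of RefSeq (GRCm38.p6). Log2 ratios were computed for 4 comparisons in Python 3.11.15 with pandas 2.3.3 and numpy 2.4.6, with a floor of 12. A ratio with 1 array at the floor is a bound, and a gene at the floor on both has no value. The ratio code was tested on simulated data. Precision is limited by the number of arrays, and since each group had 1, no SE or p-value was computed, so fold limits are sizes, not tests. Full values were given by rule for genes past 2-fold, the 5 with the highest mean signals and a set fixed by name, and any other gene with its values was chosen after they were seen. Members, lists and limits were chosen with earlier results of these data known. Other floors, same-median scaling, quantile normalisation and the median over probe sets were tried.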

Additional observations from a re-analysis of the deposited data

Results flagged for a closer look

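Vangl1 had opposite responses to the first and the 11th ECS. Its log2 ratio was -0.99 for single ECS over sham and 0.79 for 11 ECS over 10 ECS, a difference of 1.78 on the log2 scale. It drew attention because both ratios are past 1.5-fold in opposite directions, and the difference was not tested, since each group has 1 array. The signals were 59.2 in sham, 29.8 after single ECS, 32.5 after 10 ECS and 56.3 after 11 ECS, all under 5 times the floor of 12 and from 1 probe set. With a floor of 50 the ratios shrank to log2 -0.24 and 0.17.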

How the results depend on the processing

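With 1 array per group no replicate could be left out. No paired analysis was possible because each group has 1 array. Counts of genes at least 2-fold apart were small and moved with the floor, which removes ratios between dim signals. Without a floor the counts of higher and lower genes were 2 and 9 for single ECS over sham, 5 and 8 for 11 ECS over 10 ECS, 5 and 8 for 10 ECS over sham, and 6 and 6 for 11 ECS over single ECS, of 53 genes each. The shares of all genes were then 5.54% and 9.67%, 5.63% and 7.54%, 5.58% and 6.96%, and 6.67% and 6.80%. With a floor of 50 the count of higher genes was 0 for 11 ECS over 10 ECS, where Fzd8 had been. For 10 ECS over sham the count of lower genes was 0 with arrays scaled to the same median, 0 with quantile normalisation and 0 with the median over probe sets, since Frzb was then 1.97-fold, 1.99-fold and 1.85-fold lower. With a limit of 1.5-fold, chosen after seeing the data, the counts were 5 lower for single ECS over sham, 2 higher for 11 ECS over 10 ECS, 5 lower for 10 ECS over sham, and 2 higher and 1 lower for 11 ECS over single ECS. With that limit and a floor of 50, 1 of 22 was lower for single ECS over sham (Axin2, against 10.8% of all genes). For 11 ECS over 10 ECS 0 of 22 were higher, against 1.92%. For 10 ECS over sham 2 of 23 were lower (Frzb and Fzd2, against 3.91%), and for 11 ECS over single ECS 1 of 20 (Frzb, against 2.42%). With the 1.5-fold limit and arrays scaled to the same median, 1 of 37 was higher (against 6.60% of all genes) and 1 lower (Vangl1, against 4.87%) for single ECS over sham. For 11 ECS over 10 ECS 2 of 36 were higher, against 5.40%, and for 10 ECS over sham 4 of 37 were lower, against 3.92%. For 11 ECS over single ECS 2 of 35 were higher, against 4.61%, and 1 was lower, against 4.78%. Scaling to the same median put the median log2 ratio of all genes for single ECS over sham at 0.05 in place of -0.24. The genes at least 2-fold higher and lower there were 217 and 89 in place of 122 and 293, and 192 and 100 with quantile normalisation. Past 1 SD in both pairs of arrays, the lower genes at 1 h were 1 with same-median scaling, 1 with quantile normalisation and 2 with the median over probe sets, of 30 each, and the higher ones 1, 1 and 0. Under these settings 5.01%, 6.48% and 16.8% of all genes were lower, and 7.88%, 5.94% and 2.90% higher. The lower gene was Axin2 under both scalings, and Wnt4 and Wnt5a, without Axin2, with the median over probe sets. In that median the second Axin2 probe set, at the floor on all 4 arrays, counts as no change. After repeated ECS the lower genes were 1, 1 and 2 and the higher ones 2, 2 and 1 under the same settings. The shares of all genes were then 4.42%, 4.13% and 7.37% lower, and 4.20%, 4.60% and 2.51% higher. The median log2 ratio of the Wnt pathway genes for single ECS over sham depended on scaling. It was -0.29 as deposited, -0.02 with same-median scaling and -0.07 with quantile normalisation. No median of these genes moved by more than the SD between probe sets, but that SD describes single genes and is no scale for a median. The floor leaves 30 of 53 genes measured on all 4 arrays.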
